A study of Rattus norvegicus with 58 samples.

Results

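The interferon-inducible GTPases described here are 5 rat genes: RGD1309362, Ifgga2l1, Igtp, Irgm and Gbp2. They were chosen by gene symbol, with their strain differences in these same arrays already known, and all 5 were found among the 14217 genes that the platform annotation names by a single symbol. Levels were measured on Affymetrix arrays in the livers of 58 male rats, 17 weeks old and fasted overnight, with 1 array per rat. Of these, 46 were heterogeneous stock (HS) rats, an outbred colony bred from several inbred strains, labelled as having normal glucose tolerance (23 rats) or glucose intolerance (23 rats). The other 12 came from 6 inbred strains, named WKY, M520, F344, BUF, BN and ACI, with 2 arrays each. No treatment or altered gene is named in the labels, and the inbred strains differ from each other across the genome. Nothing in the labels tells whether a strain's 2 rats were of different litters or days, so the strain tests rest on a spread between arrays that may be technical.

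Immunity-related GTPases (IRG proteins) are GTP-binding proteins that cells make after exposure to interferon, above all interferon gamma. In the mouse, where they are best studied, effector IRG proteins gather on the membranes of vacuoles that hold intracellular parasites and break them, while regulatory IRG proteins of the IRGM type sit on the cell's own membranes and hold the effectors inactive. Guanylate-binding proteins (GBPs) are a related family of interferon-induced GTPases that act on the same vacuoles. Of the 5 genes, RGD1309362 (also listed under the name Ifgga1) and Ifgga2l1 belong to the effector branch. Irgm and Igtp, known in the mouse as Irgm1 and Irgm3, belong to the regulatory branch. Gbp2 is a GBP and not an IRG protein in the strict sense.

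All values are log2 expression as the authors deposited them, so a difference of 1 is a 2-fold difference. Igtp had 2 probe sets, and the brighter stands for the gene unless the dimmer is named. Each other gene had 1. Array medians lay between 5.33 and 5.39, and values well below that carry no detection call, so a low level and background cannot be told apart. The tissue label held: all 9 measured hepatocyte markers were bright, from a mean of 10.19 for Tat to 14.94 for Alb. The values are not scaled per transcript length, so levels are compared between rats and not between genes.

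The stretch just upstream of a gene's start site is where interferon-regulated factors bind many genes of these families. It is shown for the 4 members with an entry in the RefSeq promoter table (build GRCr8), 250 bases each, read 5′ to 3′ on the gene's strand and ending at the base before the start site. RGD1309362 has no entry. Capitals mark matches to 2 motifs, searched on both strands: the interferon-stimulated response element, ISRE, as GAAANNGAAA, and the gamma-activated site, GAS, as TTCNNNGAA, which reads the same on both strands. No 2 matches overlapped in these windows.
Ifgga2l1 (chr18:56031657-56031906, + strand): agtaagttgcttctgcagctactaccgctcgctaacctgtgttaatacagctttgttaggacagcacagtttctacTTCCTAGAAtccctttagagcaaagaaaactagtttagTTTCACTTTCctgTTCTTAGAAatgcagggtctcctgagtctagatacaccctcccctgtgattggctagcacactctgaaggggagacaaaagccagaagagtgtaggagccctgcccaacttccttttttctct
Igtp (chr10:42874797-42875046, + strand): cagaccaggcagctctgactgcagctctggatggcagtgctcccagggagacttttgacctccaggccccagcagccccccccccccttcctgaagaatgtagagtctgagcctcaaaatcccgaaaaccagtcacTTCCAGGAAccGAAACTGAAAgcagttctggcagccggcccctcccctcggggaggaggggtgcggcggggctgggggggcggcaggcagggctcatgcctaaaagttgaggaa
Irgm (chr10:33742579-33742828, - strand): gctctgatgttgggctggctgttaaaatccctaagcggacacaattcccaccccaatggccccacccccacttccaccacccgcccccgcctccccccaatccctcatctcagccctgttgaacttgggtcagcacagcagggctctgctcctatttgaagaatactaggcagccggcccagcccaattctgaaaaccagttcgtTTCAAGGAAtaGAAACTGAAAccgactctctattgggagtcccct
Gbp2 (chr2:234005477-234005726, + strand): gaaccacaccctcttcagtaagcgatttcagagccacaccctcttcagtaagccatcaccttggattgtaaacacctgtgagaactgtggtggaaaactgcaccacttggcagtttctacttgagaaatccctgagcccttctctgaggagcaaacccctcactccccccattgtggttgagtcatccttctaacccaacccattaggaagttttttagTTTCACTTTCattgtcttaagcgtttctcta

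An ISRE match was present in all 4 windows, against 3.41% of the 33469 upstream windows of the same length in the table (1140 windows). A GAS match was present in Ifgga2l1, Igtp and Irgm, against 7.67% of all windows (2566 windows). The matches of Igtp and Irgm had the same arrangement: a GAS match, 2 further letters, then GAAACTGAAA, at -103 to -94 from the start site in Igtp and at -34 to -25 in Irgm. The neighbouring IRG gene Irgm2 also had this arrangement, at -102 to -93. In Ifgga2l1 the ISRE match lay on the opposite strand, TTTCACTTTC at -136 to -127, with GAS matches on each side of it. Gbp2 held the same TTTCACTTTC at -31 to -22 and no GAS match in this window. A match is a run of letters and does not show that a factor binds there.

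The first question is how far the 5 transcripts differ among the inbred strains. Since the genes were selected on these differences, the strain levels are a description and carry no test. The range of the 6 strain means ran from 1.27 for Irgm to 7.39 for RGD1309362, against a median range of 0.44 over all 14217 genes. The 5 genes did not share 1 order of strains: M520 was highest for Ifgga2l1, Igtp and Irgm but lowest for Gbp2, ACI was highest for RGD1309362, and BN was lowest for Igtp and Irgm.

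RGD1309362 (Gene ID 307415), an effector-type IRG gene, had the widest range of the 5. The ACI arrays read 10.31 and 9.96. The BN arrays read 6.02 and 5.99, and the M520 arrays 5.54 and 5.52. In the other strains the gene was far below the typical array median, with BUF at 3.23 and 3.03, WKY at 2.94 and 3.47, and F344 at 2.90 and 2.58. ACI therefore stood apart from every other inbred array, BN and M520 formed a middle level, and BUF, WKY and F344 a low level, within which the WKY and BUF arrays overlapped. Since the low values cannot be told from background, the size of the difference in transcript behind the range of 7.39 is uncertain. Whether strain variants under the probes alter the signal was not tested for RGD1309362, Ifgga2l1 or Igtp. The pooled SD of the 2 arrays within a strain was 0.22.

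Ifgga2l1 (Gene ID 307414), the other effector-type gene, had a range of 4.50 between the highest and lowest strain means, the lower end again below the array medians. Its arrays read 9.46 and 9.44 in M520, 9.42 and 9.16 in ACI, and 8.35 and 8.32 in BN. WKY read 6.17 and 6.10, F344 5.11 and 4.96, and BUF 4.97 and 4.93. The strains thus fell into an upper set of M520, ACI and BN, and a lower set of WKY, F344 and BUF, with only the F344 and BUF arrays overlapping between neighbours in the order. The same 3 strains were the upper ones for RGD1309362. The genes differed in M520, which was highest for Ifgga2l1 and at the middle level for RGD1309362.

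Igtp (Gene ID 303163), a regulatory IRG gene, was low in BN alone. BN read 7.04 and 6.76, and the 10 arrays of the other strains read from 8.64 in BUF to 9.39 in M520. M520 averaged 9.15 ± 0.33, WKY 9.03 ± 0.08, F344 8.92 ± 0.08, BUF 8.86 ± 0.31 and ACI 8.82 ± 0.07 (SD, n = 2 each), and each neighbouring pair in that order overlapped. The range of strain means was 2.26, or 4.78-fold. The dimmer probe set of Igtp was also lowest in BN, at 4.74 and 4.24, but it was noisier, with a pooled SD of 0.61 against 0.21 for the brighter, and its F344 arrays read 6.78 and 5.01. Another probe set, annotated to Igtp together with Irgm2 and Igtpl1, read 8.04 and 7.27 in BN and overlapped every strain except ACI and F344. Its signal cannot be assigned to 1 of these genes.

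Irgm (Gene ID 303090), the other regulatory IRG gene, had the narrowest range, 1.27 or 2.40-fold. Its arrays read 7.74 and 7.45 in M520, 7.58 and 7.56 in WKY, and 7.26 and 7.25 in ACI. F344 read 7.03 and 6.65, BUF 6.62 and 6.13, and BN 6.52 and 6.14. M520 overlapped WKY at the top and BUF overlapped BN at the bottom. BN was thus at the low end for both regulatory genes, but for Irgm it was not separate from BUF.

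Gbp2 (Gene ID 171164), the guanylate-binding protein, had a range of strain means of 1.71, with the lowest below the typical array median. WKY read 6.76 and 6.67, and M520 read 5.24 and 4.78. ACI read 6.37 and 6.04, BUF 5.81 and 5.64, and F344 5.52 and 5.39. The BN arrays read 6.96 and 5.83 and so spanned most of this range, overlapping both WKY and ACI. WKY and M520 were the ends of the order and did not overlap. M520 also had the lowest summed level of the 11 Kupffer cell and macrophage markers, 12.4 to 12.5 as log2 of their summed linear values, against 13.3 to 13.5 in WKY and 12.8 to 13.7 over the other strains. The part of these markers in the Gbp2 levels was not tested. In bulk liver, fewer cells of a type and less RNA per cell cannot be told apart.

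**Figure D1:**
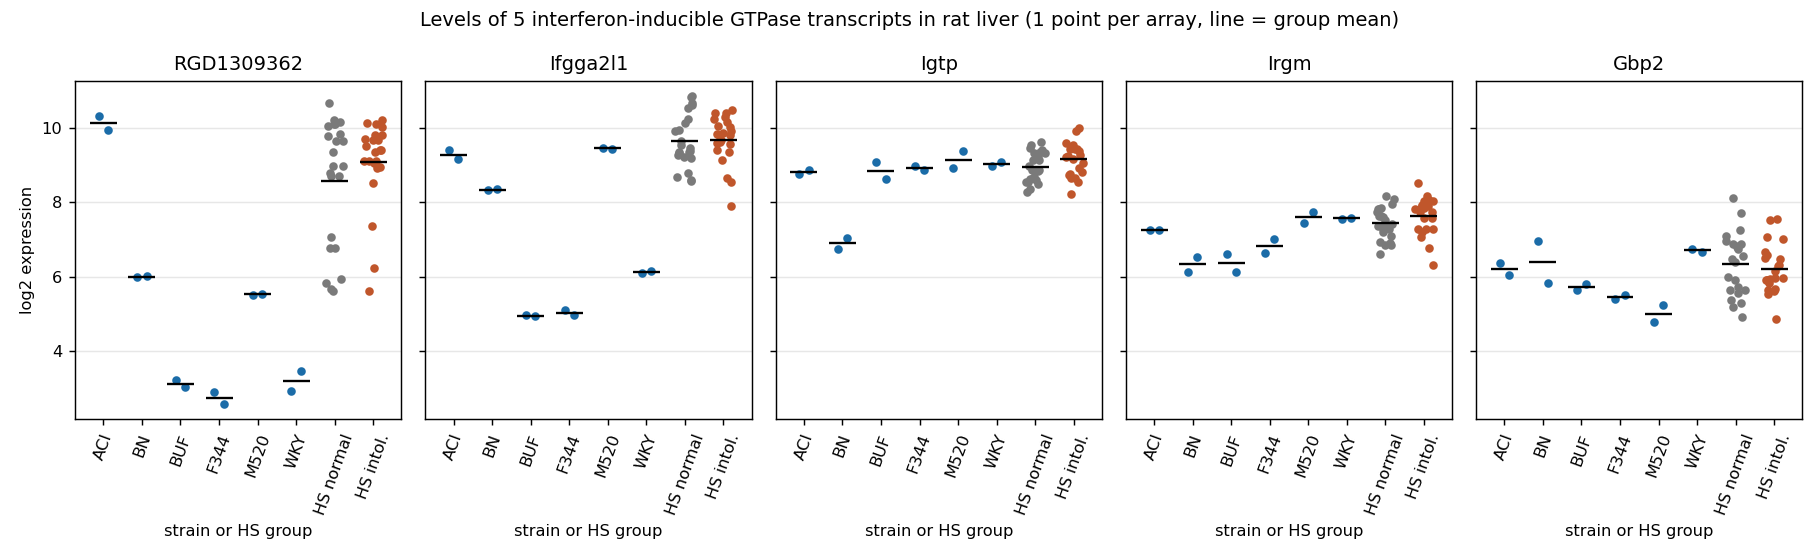
Log2 expression of the 5 GTPase transcripts (y axis, the same scale in each panel) by inbred strain and HS glucose group (x axis), with 1 point per array and a line at each group mean. RGD1309362 and Ifgga2l1 spread widely among the inbred strains, Igtp is low in BN alone, and the 2 HS groups overlap for every gene.

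The next question is how the outbred HS rats compare with these levels. RGD1309362 ran from 5.62 to 10.67 over the 46 HS rats, with a median of 9.35 and an SD of 1.47, which was the 10th largest SD of the 14217 genes. The rats fell into separate clusters: 10 rats at or below 7.37 and 36 rats at or above 8.52, with none in between. The lower cluster held 7 glucose-normal and 3 glucose-intolerant rats. All 46 HS rats lay above both arrays of BUF, F344, M520 and WKY, 41 lay above both BN arrays, and 36 lay below both ACI arrays. The low level of RGD1309362 seen in BUF, F344 and WKY was therefore not found in any HS rat measured here.

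Ifgga2l1 ran from 7.91 to 10.85 in HS rats, with a median of 9.65, an SD of 0.67 and no separate clusters. Every HS rat was above both arrays of BUF, F344 and WKY, and 29 of 46 were above all 12 inbred arrays. Both effector-type genes were thus above their lowest inbred levels in every HS rat. Igtp ran from 8.24 to 9.99 with a median of 9.15. All 46 HS rats were above both BN arrays for Igtp, and 14 were above all inbred arrays.

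Irgm ran from 6.33 to 8.52 in HS rats with a median of 7.62, and 19 of 46 were above all inbred arrays. Gbp2 ran from 4.87 to 8.13 with a median of 6.22, and 8 of 46 were above all inbred arrays. No HS rat was below all inbred arrays for any of the 5 genes. The HS SDs of Igtp, Irgm and Gbp2 were 0.44, 0.47 and 0.75, against a median SD of 0.17 over all genes. HS and inbred rats are set side by side as ranges, with no test of the difference, since the inbred arrays are 2 per strain.

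**Figure D2:**
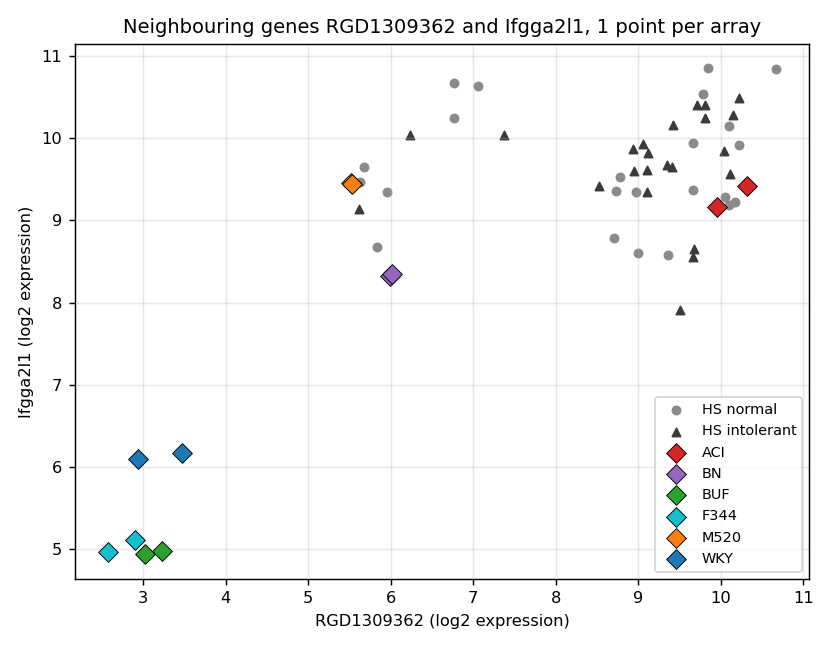
Log2 expression of RGD1309362 (x axis) against Ifgga2l1 (y axis), 1 point per array, for 23 glucose-normal and 23 glucose-intolerant HS rats and 2 arrays of each inbred strain. BUF, F344 and WKY lie together at the lower left, BN and M520 have middle RGD1309362 with high Ifgga2l1, and the HS rats form a group of 10 and a group of 36 along the x axis, both with high Ifgga2l1.

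RGD1309362 and Ifgga2l1 lie next to each other on chromosome 18 of the GRCr8 annotation, with 1 annotated gene between them. The 6 nearest flanking genes that were measured and are not members, Chsy3, Minar2, Adamts19, Smim3, Dctn4 and Rbm22, had ranges of strain means from 0.23 to 0.36, and the F test over strains called none of them. Of these, Chsy3, Minar2, Adamts19 and Smim3 had a mean below the array medians, from 3.06 to 4.75, where a range could hardly be seen, while Dctn4 averaged 5.52 and Rbm22 7.25. Igtp lies on chromosome 10 directly beside Irgm2, another regulatory IRG gene. Irgm2 averaged 11.57 over all arrays and its strain means ranged over 0.14, rank 13917 of the 14217 genes from the widest. The low level of Igtp in BN was not seen in its neighbour, whose BN arrays read 11.60 and 11.62. The F test called 1 measured gene near Igtp, Cnot8 (range 0.57), and none of the measured genes nearest to Irgm. Gbp2 lies on chromosome 2 beside Gbp4, with Gbp7 the next gene but 1, and its relations with each of them across HS rats are given below. On the other side of Gbp2 the F test called Gtf2b, which ranged over 0.90 and was highest in BN. Gbp7 ranged over 3.32 among strains, highest in WKY at 9.64 ± 0.25 and lowest in M520 at 6.32 ± 0.80 (SD, n = 2 each). The strains with the highest and lowest means were those of Gbp2, but BN did not hold the same place. For Gbp7 the BN arrays, 6.73 and 6.26, lay between the M520 arrays, 6.89 and 5.76. For Gbp2 the BN mean was next below that of WKY, and both BN arrays, 6.96 and 5.83, were above both M520 arrays.

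The study's main comparison asks which liver transcripts differ with glucose tolerance. None of the 5 GTPases differed between the groups at an adjusted p of 0.05. The share called over all genes was 0%, so this count says nothing particular about the GTPases. The differences below are intolerant minus normal, with the SE, from limma's moderated test adjusted by the Benjamini-Hochberg method over 31042 probe sets.

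RGD1309362 ran from 5.62 to 10.67 with a median of 8.99 in the 23 normal rats, and from 5.62 to 10.23 with a median of 9.40 in the 23 intolerant rats. Its difference was 0.50 ± 0.41 (95% interval -0.33 to 1.33, adjusted p = 0.779 in limma). Each group held rats of both clusters. Ifgga2l1 ran from 8.58 to 10.85 (median 9.47) in normal and from 7.91 to 10.49 (median 9.82) in intolerant rats, and the means differed by 0.02 ± 0.19 (95% interval -0.37 to 0.41, adjusted p = 0.984 in limma). The 2 groups overlapped over nearly their whole ranges for both effector-type genes, and for each 17 of 23 intolerant rats lay above the normal median.

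For Igtp, normal rats ran from 8.29 to 9.62 with a median of 8.88, and intolerant rats from 8.24 to 9.99 with a median of 9.24. The difference was 0.22 ± 0.12 (95% interval -0.02 to 0.47, adjusted p = 0.652 in limma), and 16 of 23 intolerant rats lay above the normal median. Its dimmer probe set gave 0.42 ± 0.25 (95% interval -0.08 to 0.91, adjusted p = 0.678 in limma). Both probe sets of this regulatory gene therefore had a higher mean in intolerant rats without passing the test. For Irgm, normal rats ran from 6.62 to 8.18 (median 7.43) and intolerant rats from 6.33 to 8.52 (median 7.82), a difference of 0.20 ± 0.13 (95% interval -0.06 to 0.46, adjusted p = 0.706 in limma). Here too 16 of 23 intolerant rats lay above the normal median. For Gbp2, normal rats ran from 4.93 to 8.13 (median 6.47) and intolerant rats from 4.87 to 7.55 (median 5.98), a difference of -0.13 ± 0.21 (95% interval -0.56 to 0.30, adjusted p = 0.903 in limma). Gbp2 was the member with a lower mean in intolerant rats, and 8 of 23 intolerant rats lay above the normal median. A missed threshold does not show that the groups are alike: for the main probe sets of these genes the intervals leave room for differences of up to 1.33 for RGD1309362 and 0.47 for Igtp.

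**Figure D3:**
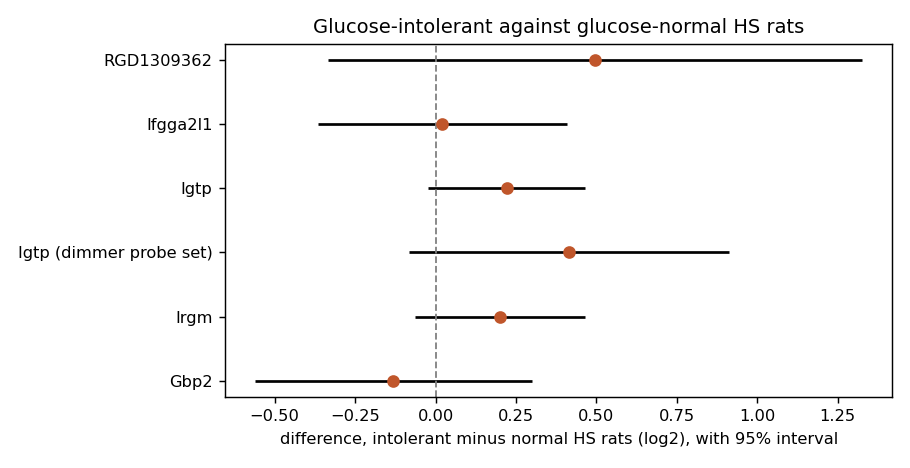
Mean log2 expression of 23 intolerant minus that of 23 normal HS rats (x axis) for each GTPase probe set (y axis); points are differences and lines their 95% intervals from limma. Every interval includes 0, and RGD1309362 has the widest, from -0.33 to 1.33.

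The interferon pathway around these genes was described with lists of 75 other measured genes, chosen with earlier results of these data known. Over the 6 strains, the limma F test (adjusted p under 0.05) called 36 of these 75, against 13.8% of all 14217 genes, and the count ran from 27 to 43 when single arrays were left out. Among the other IRG and GBP genes, 3 of 7 were called: Gbp7, Gbp4 (range 0.98) and Atl3 (0.59), the last an atlastin, a membrane-fusing relative of the GBPs. Irgm2 and Irgq, a relative whose GTPase site is degenerate, were not called.

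Of the interferon gamma ligand, receptor and signalling genes, 2 of 15 were called, a share near the 13.8% of all genes. They were Ifngr1, the ligand-binding receptor chain (range 0.75), and Irf8, a transcription factor of myeloid cells (0.73). The count therefore says nothing particular about this list. This count was 0 without M520 replicate 1 or either ACI array, 1 without M520 replicate 2, and 5 and 4 without BUF replicate 1 and 2. The ligand gene Ifng averaged 2.63, far below the array medians. Other interferon gamma targets were called in 10 of 19 cases, led by Ubd, a ubiquitin-like modifier (range 5.30), the immunoproteasome subunits Psmb8 (2.39) and Psmb9 (1.98), and the peptide transporter Tap2 (1.63). Type I interferon targets were called in 19 of 23 cases, led by the antiviral GTPase Mx2 (3.26), Oas1a, which senses double-stranded RNA (3.01), Usp18, which removes Isg15 from proteins (2.51), and the transcription factor Irf7 (2.16). Autophagy genes, whose products help load IRG proteins onto vacuoles, were called in 2 of 11 cases, Atg7 (0.78) and Gabarapl1 (0.74). Among 11 genes this count is also close to the 13.8% of all genes. This count was 0 without M520 replicate 1 and 1 without any single one of ACI replicates 1 and 2, BN replicates 1 and 2, BUF replicate 2, F344 replicate 1, M520 replicate 2 and WKY replicate 1.

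The direction of the pathway genes in each strain can be set beside the members' levels, with each strain compared with the mean of the other 5 in limma (adjusted p under 0.05). In WKY, 21 of 75 were higher and 2 lower, against 3.53% and 2.26% of all genes. The lists were not alike in this. Of the type I interferon targets 14 of 23 were higher, of the other interferon gamma targets 3 of 19. Of the interferon gamma signalling genes 1 of 15 was higher. WKY was also highest for Gbp2 and second for Igtp and Irgm, while it was at the low level for RGD1309362 and in the lower set for Ifgga2l1. In BN, 2 were higher and 19 lower, against 3.36% and 2.39% of all genes, and Igtp and Irgm were lowest there. Of the 19, 11 were type I interferon targets and 7 were other interferon gamma targets. The count lower in BN fell without BN replicate 1, and the count higher in WKY fell without WKY replicate 1. The number of probe sets called for each strain over the whole platform also fell in the same fits, so these falls are not particular to the pathway genes. Sums of the marker lists can be set beside these counts. The Kupffer cell and macrophage sum was 13.1 to 13.7 in BN, 13.3 to 13.5 in WKY and 13.3 in both BUF arrays, so BN and WKY overlapped. The 19 T and NK cell markers summed to 9.49 to 9.68 in BN, against 9.67 to 10.2 over the other strains, with 1 called lower. Of 9 endothelial markers, 4 were called higher in BN (1 to 5 when single arrays were left out), where they summed to 12.1 to 12.2. The part of these cells in the pathway counts was not tested.

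In M520, 0 were higher and 12 lower, against 1.34% and 4.22% of all genes. Of the 12, 5 were other interferon gamma targets and 2 were type I interferon targets. M520 nevertheless had the highest Ifgga2l1, Igtp and Irgm means. For Igtp and Irgm, M520 replicate 1 read 8.92 and 7.45, below both WKY arrays. The count lower in M520 fell without either M520 array or ACI replicate 2, and rose without BUF replicate 1. The number of M520 probe sets called over the whole platform moved the same way in each of these fits. In M520, 4 of 11 Kupffer cell and macrophage markers were also called lower, and 0 without either M520 array, and their part in the count was not tested. In ACI, where RGD1309362 was highest, 6 were higher and 1 lower, against 1.46% and 0.985% of all genes. The count higher fell without either ACI array, as did the number of ACI probe sets called. In BUF, 3 were higher and 3 lower, against 3% and 3.86% of all genes. Both counts rose without BUF replicate 1 and fell without BUF replicate 2, as did the number of BUF probe sets called. In F344, 2 were higher and 1 lower, against 0.795% and 0.935% of all genes. The count higher rose without BUF replicate 2, as did the number of F344 probe sets called. The strain order of RGD1309362 and Ifgga2l1 was thus not that of the pathway counts with all arrays, where WKY had the most genes higher and BN the most lower. Without BN replicate 1, 12 genes were lower in M520 and 6 in BN.

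None of the 5 pathway lists or the 8 cell type marker lists held a gene called between the glucose groups. The summed Kupffer cell and macrophage markers ran from 11.8 to 13.3 with a median of 12.7 in normal rats, and from 11.8 to 13.1 with a median of 12.5 in intolerant rats. The 19 T and NK cell markers summed to 9.21 to 10.3 in normal and 9.26 to 9.95 in intolerant rats, and 13 of them, Cd3d, Cd3e and Cd3g among them, had a mean below the typical array median.

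The last question is whether the GTPases varied together among the 46 HS rats. Relations of each member with the other members and with 142 listed genes were tested with 100000 permutations of the rats, two-sided, and adjusted by the Benjamini-Hochberg method over a family of 871 relations, of which 174 (20%) passed 0.05. Without the 2 rats farthest from the median of the member, 95 passed, so counts are given below with and without them. Relations with genes outside the lists were not tested, so no share over all genes stands beside these counts. The 20% is over chosen lists, and a count near it says nothing particular about its list. The smallest p these permutations can give is 1e-05. All 6 relations among Ifgga2l1, Igtp, Irgm and Gbp2 were positive and passed.

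Ifgga2l1 and Irgm, an effector-type and a regulatory gene on different chromosomes, had the closest relation (r = 0.72, permutation p = 1e-05, adjusted p = 0.000348; rho = 0.71, permutation p = 1e-05, adjusted p = 0.000512). It was 0.73 among normal and 0.75 among intolerant rats, and 0.65 without the 2 rats farthest from the median, where it still passed. Igtp and Irgm, the regulatory pair, followed (r = 0.68, permutation p = 1e-05, adjusted p = 0.000348; rho = 0.64, permutation p = 1e-05, adjusted p = 0.000512), with 0.62 in normal, 0.69 in intolerant and 0.67 without 2 rats, where it passed. Ifgga2l1 and Gbp2 gave r = 0.66 (permutation p = 1e-05, adjusted p = 0.000348; rho = 0.60, permutation p = 2e-05, adjusted p = 0.000757), with 0.67 in each glucose group and 0.61 without 2 rats, where it passed. These 3 relations were about as strong within each glucose group as over all rats.

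Weaker relations joined Irgm with Gbp2 (r = 0.50, permutation p = 0.00049, adjusted p = 0.00585; rho = 0.44, permutation p = 0.00234, adjusted p = 0.0215), Igtp with Gbp2 (r = 0.47, permutation p = 0.00097, adjusted p = 0.00939; rho = 0.43, permutation p = 0.00348, adjusted p = 0.0291) and Ifgga2l1 with Igtp (r = 0.47, permutation p = 0.00108, adjusted p = 0.0102; rho = 0.45, permutation p = 0.00207, adjusted p = 0.0197). Without the 2 rats farthest from the median these were 0.38, 0.40 and 0.39. None of the 3 then passed (adjusted p = 0.0764, 0.0543 and 0.0692 by permutation). Within the glucose groups the 3 r values ran from 0.40, for Ifgga2l1 with Igtp in normal rats, to 0.57.

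Because RGD1309362 fell into separate clusters, its relations were tested only within each cluster. Among the 36 rats of the upper cluster it was related to Gbp2 (r = 0.53, permutation p = 0.00093, adjusted p = 0.0091, and rho = 0.51, permutation p = 0.00174, adjusted p = 0.0172). Without 2 rats this r was 0.44 and did not pass (adjusted p = 0.0725 by permutation). With Ifgga2l1, its neighbour on the chromosome, r was 0.39 (permutation p = 0.0194, adjusted p = 0.0795; rho = 0.39, permutation p = 0.0203, adjusted p = 0.0921), and with Igtp and Irgm it was 0.26 and 0.15, none of them past the threshold. Over these 36 rats its highest r was with Gbp7 (r = 0.63, permutation p = 8e-05, adjusted p = 0.00155; rho = 0.60, permutation p = 0.00017, adjusted p = 0.00302). Among the 10 rats of the lower cluster r was 0.77 with Ifgga2l1 (adjusted p = 0.0558 by permutation) and 0.76 with Gbp2 (adjusted p = 0.0591 by permutation), which rest on few rats. Gbp7 passed in the lower cluster too (r = 0.89, permutation p = 0.00149, adjusted p = 0.0128; rho = 0.96, permutation p = 8e-05, adjusted p = 0.00194).

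Gbp2 had the most relations with the other genes of the lists, counted where the adjusted p of r was under 0.05. It was related to its neighbours Gbp4 (r = 0.80, rho = 0.82) and Gbp7 (r = 0.73, rho = 0.74), to the chemokines Cxcl9 (r = 0.85, rho = 0.81) and Cxcl10 (r = 0.84, rho = 0.76), and to Cd74, the class II invariant chain (r = 0.83, rho = 0.83). Each of these had a permutation p of 1e-05 and an adjusted p of 0.000348 for r. Gbp2 was also related to 10 of 11 Kupffer cell and macrophage markers, led by Aif1 (r = 0.82, rho = 0.81, adjusted p = 0.000348 and 0.000512 by permutation), and to 10 of 19 T and NK cell markers. Without 2 rats these counts were 10 and 7. No hepatocyte marker of 9 was related to it. None of the 11 Kupffer cell markers had a mean below the typical array median, and the part of these cells in the level of Gbp2 was not tested.

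Ifgga2l1 shared part of this pattern, with 9 of 11 Kupffer cell and macrophage markers, 5 of 19 T and NK cell markers and 9 of 18 interferon gamma targets related to it, all positively. Without 2 rats these counts were 4, 0 and 8. The share of cells in its level was likewise not tested. Beside the 20% of the whole family, Igtp and Irgm were related to 9 and 7 of 18 interferon gamma targets. The counts were 7 and 6 of 23 type I interferon targets, and 0 and 1 of 11 Kupffer cell and macrophage markers. Without 2 rats the counts of Igtp and Irgm were 6 and 4 for interferon gamma targets, 4 and 3 for type I targets, and again 0 and 1 for these markers. Cxcl10, an interferon-induced chemokine, was the listed gene outside the family with the highest r for both, at 0.69 for Irgm (adjusted p = 0.000348 by permutation; rho = 0.65, adjusted p = 0.000968) and 0.56 for Igtp (adjusted p = 0.00106 by permutation; rho = 0.54, adjusted p = 0.00257). Whether the counts of Gbp2 and Igtp differ was not tested.

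Gbp2 was positively related to 11 of 18 interferon gamma targets and 10 of 23 type I interferon targets, and Ifgga2l1 to 6 of 23 type I targets. Without 2 rats these counts were 9, 9 and 4. In its upper cluster of 36 rats RGD1309362 was related to 0 of 18 interferon gamma targets and 2 of 23 type I targets, and in the lower cluster of 10 rats to 5 of 18 and 11 of 23, led by Isg15 (r = 0.96, rho = 0.81, adjusted p = 0.00184 and 0.047 by permutation). Without 2 rats the type I counts were 1 in the upper and 1 in the lower cluster, and no interferon gamma target passed in either. Ubd also fell into separate clusters and was set apart: within its clusters of 10 and 36 rats, r with Gbp2 was 0.86 and 0.61 (adjusted p = 0.0128 and 0.00174 by permutation; rho = 0.87 and 0.44, adjusted p = 0.0215 and 0.0478). Signalling genes passed with Gbp2 in 4 of 15 cases, with Ifgga2l1 in 3, with Igtp in 2 and with Irgm in 4, of which Stat2 was negative (r = -0.39, adjusted p = 0.0399 by permutation) and the rest positive. The rho of Stat2 with Irgm, -0.37, did not pass (adjusted p = 0.0662 by permutation). Without 2 rats these counts were 3, 2, 0 and 0. Irf8 had the highest r with Gbp2 (r = 0.79, rho = 0.80, adjusted p = 0.000348 and 0.000512 by permutation). Of the 11 autophagy genes, none was positively related to any member, while Becn1 with Ifgga2l1 had an r of -0.41 (adjusted p = 0.0304 by permutation; rho = -0.40, adjusted p = 0.0377). Map1lc3a with Irgm had an r of -0.41 (adjusted p = 0.0307 by permutation), but its rho of -0.38 did not pass (adjusted p = 0.059). Without 2 rats no autophagy gene passed with any member. Ifng itself, which was dim, had an r of 0.08 with Gbp2 (adjusted p = 0.717 by permutation).

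The remaining lists had few relations with the members, and without 2 rats only those of Irgm with bile duct and neutrophil markers, that of Gbp2 with a B cell marker and a neutrophil marker with RGD1309362 in its lower cluster passed. Of 9 endothelial markers, 3 were related to Ifgga2l1 and 1 to Gbp2, all positively. The 9 stellate cell and fibroblast markers had 1, with RGD1309362 in its upper cluster. The 4 bile duct markers and the 3 neutrophil markers had 1 each, with Irgm, and of 3 B cell markers 1 was related to Ifgga2l1 and 1 to Gbp2. Hepatocyte markers had 1 relation, a negative r of Serpina1 with Irgm (r = -0.39, adjusted p = 0.041 by permutation), whose rho of -0.30 did not pass (adjusted p = 0.152).

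**Figure D4:**
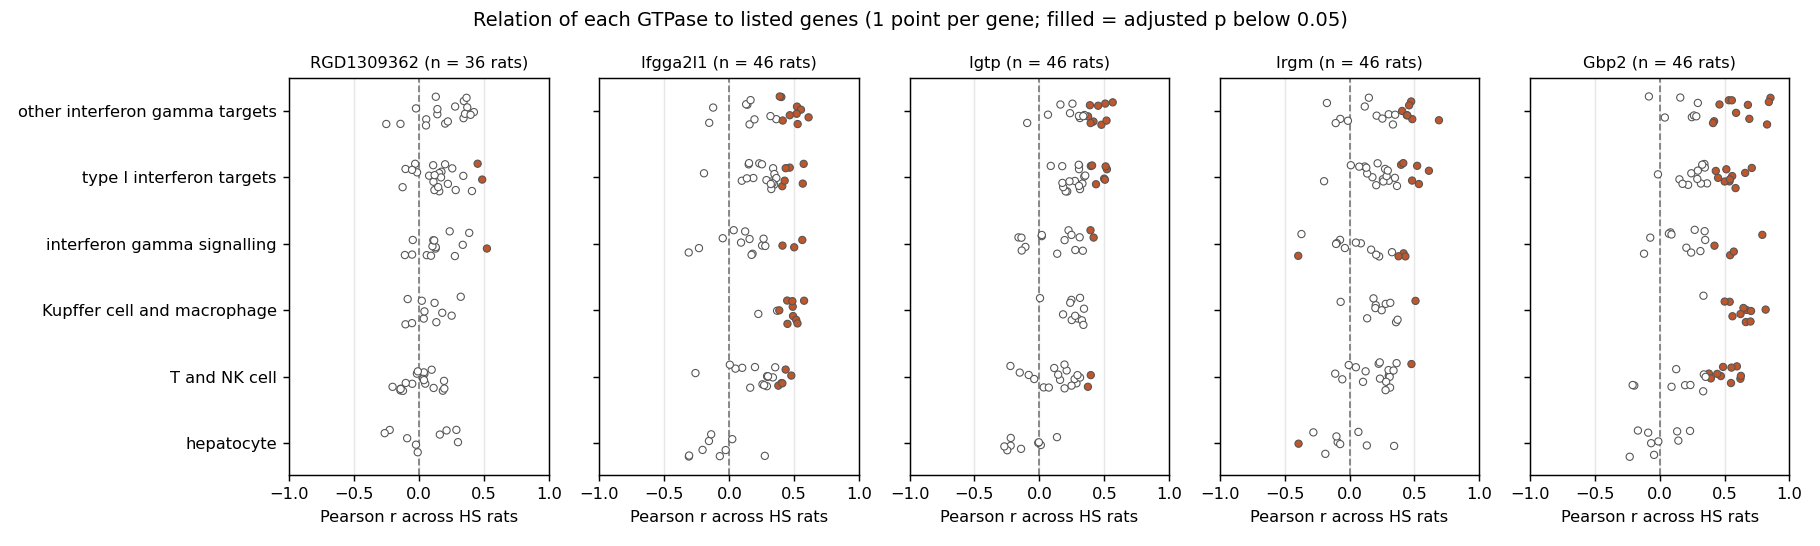
Pearson r of each GTPase with listed genes across HS rats (x axis), by gene list (y axis), 1 point per gene, filled where the permutation p adjusted over 871 relations is under 0.05. RGD1309362 is shown for the 36 rats of its upper cluster and the others for all 46 rats; Gbp2 has filled points in 10 of 11 Kupffer cell and macrophage markers and Igtp in 0.

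Over all 14217 genes, those most like each of the 4 members without separate clusters were ranked by Spearman rho across the 46 HS rats, as a description with no p. RGD1309362 was not ranked, because of its clusters. For Gbp2 they were Plac8 (0.87), Casp1 (0.84), RT1-Da (0.84), Crip1 (0.83) and Hopx (0.83). For Ifgga2l1 they were Ifitm1 (0.69), Gbp7 (0.67), Bcl2a1 (0.64), Ly6c (0.64) and Ptpn18 (0.63). Casp1 encodes the inflammatory caspase, RT1-Da a class II histocompatibility chain and Ifitm1 an interferon-induced membrane protein. For Irgm they were Prickle1 (0.68), Fyco1 (0.67), Cxcl10 (0.65), Atp23 (0.63) and Epha4 (0.63). For Igtp they were Ptpro (0.61), Rab9a (0.57), Lypd8l1 (0.57), Apol9a (0.56) and Hnrnpl (0.56). No gene was among the 5 most alike for more than 1 of these 4 members.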

How the data were processed

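Liver RNA was amplified in 2 cycles, labelled and hybridised to Affymetrix rat arrays, per the labels' protocols. The authors deposited log2 expression values for 31042 probe sets. How background was corrected and arrays were scaled is not stated there, and the only tool in the submitters' processing notes is Partek. Arrays have no read depth, so precision rests on their number. Neither scan dates nor families were at hand, and no batch was tested.

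The platform annotation gave the names: 20826 probe sets had a single symbol, 436 several and 9780 none. For each gene the probe set of highest mean was used, and 14167 of 14217 genes were found in GRCr8. The members and the gene lists were chosen with earlier results of these data known. Named genes were all members, up to 4 called genes per pathway list by strain range, the 5 most like each member (not given for RGD1309362, which had separate clusters), and the 3 measured genes on each side of it. Genes named for a relation were chosen after their values were seen.

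Tests used limma 3.58.1 in R 4.3.3 (lmFit and eBayes) on the deposited values with no filter, checked on simulated data, with a threshold of 0.05 on p-values adjusted over all probe sets. Relations used permutations in numpy 2.4.6. Separate clusters were called at a gap of at least 1 with at least 3 rats on each side, and relations were then given within clusters of at least 6 rats. Alternatives covered the probe sets tested, the scaling, the variance model, array weights, a replicate block, and fits without single arrays or without 2 rats.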

Additional observations from a re-analysis of the deposited data

How the results depend on the processing

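The differences of the 5 GTPases between glucose groups stayed past no threshold under any alternative run, with adjusted p-values from 0.485 to 0.995. The difference of Ifgga2l1 turned to -0.0305 (adjusted p = 0.968) with array weights, a setting under which 12 probe sets passed over the whole table, and 1 passed with quantile normalisation; the cause was not tested. Leaving out single inbred arrays moved the number of probe sets called: from 2130 to 5945 for the F test (3700 with all arrays), 148 to 1452 for ACI (752), 498 to 1676 for BN (1454), 229 to 4255 for BUF (1789), 179 to 687 for F344 (499), 230 to 2296 for M520 (1445) and 487 to 1751 for WKY (1471). The lone array of a strain was then assumed to vary like the others. The range of strain means of Igtp became 2.49 without M520 replicate 1. With the replicate block the F test called 3698 probe sets and 36 of the 75 pathway genes, and the block changed no count by over 1.5 times. Over 15 pairs of strains the differences between replicates correlated from -0.15 to 0.42 (median -0.06). Whether same-numbered arrays of some strains share a batch was not tested. Of the 871 relations, 44 passed among normal rats alone, 53 of 720 among intolerant rats alone and 95 without the 2 rats farthest from the median, where fewer rats were tested, against 174.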
